A study of Mus musculus with 6 samples.

Results

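The hedgehog pathway genes described here are Gli1, Gli2, Gli3, Ptch1, Smo, Sufu, Boc, Cdon and Gas1, taken by symbol from the deposited gene table. All 9 were found among the 24041 genes of the table, and all 9 were among the 14451 genes that passed the filter on low counts. They were measured in 6 RNA-seq libraries of cells of the mouse cerebral cortex, which had taken up plasmids by electroporation (short electric pulses) and were sorted for the green fluorescent protein GFP. In 3 libraries the cells had received GFP with mutant PRPF6, and in 3 libraries GFP with wild-type PRPF6, so both groups had been given a PRPF6 plasmid and no group went without one. The labels do not give the mutation, the species or promoter of the plasmid, the strain, the age, or whether the libraries came from separate animals. The p-values therefore measure only how these libraries vary, and that variation may be technical.

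Hedgehog signalling is controlled by release from repression. Without ligand the receptor Patched 1 holds the membrane protein Smoothened inactive, and the GLI transcription factors are held back by SUFU and trimmed into repressors. When Sonic hedgehog binds Patched together with one of the co-receptors BOC, CDON or GAS1, Smoothened moves into the primary cilium and full-length GLI activators reach the nucleus. Gli1, Ptch1 and Hhip are switched on by the pathway itself and are commonly read as its output, whereas Boc, Cdon and Gas1 are turned down by it. In the embryonic forebrain Sonic hedgehog is made ventrally, and GLI3 repressor keeps the cortex dorsal.

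None of the 9 genes passed edgeR's quasi-likelihood test between mutant and wild-type PRPF6 (adjusted p = 1.00 for each), where 0% of all 14451 genes passed. All 9 had a higher fitted mean with mutant PRPF6 (median log2 difference 0.36). Over all genes tested, 49.8% had a higher fitted mean, with a median log2 difference of −0.0013. The groups overlapped for every one of the 9 genes, while 9.14% of all genes had groups that did not overlap. At an unadjusted p under 0.05 stood 0 of the 9, against 3.38% of all genes. The larger differences lay between single libraries: Ptch1 spanned 14.1-fold and Gli1 9.98-fold from the lowest to the highest of the 6. Without wild-type replicate 3 the median over the 9 genes was 0.19 with 8 higher, without wild-type replicate 2 it was 0.71 with 9 higher, and without mutant replicate 1 it was 0.55 with 8 higher.

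The libraries held 45115114 to 60600621 counts, so 1 count was worth 0.0164 to 0.0228 CPM, the unit of counts scaled by each library's total and TMM factor. Prpf6 itself averaged 134 ± 10.01 CPM with mutant and 141 ± 22.6 CPM with wild-type PRPF6 (SD, n = 3 each). That value does not check the labels, because both groups received a PRPF6 plasmid. Wild-type replicate 3 stood apart in meningeal fibroblast markers, which summed to 1745 CPM there and to at most 193 CPM in any other library. Red blood cell markers summed to 17143 CPM there and to at most 2872 CPM elsewhere. Mutant replicate 1 had the lowest sum of dorsal cortex markers, 1568 CPM, against 2183 to 3666 CPM in the other libraries. Among these markers, Emx1, Eomes, Tbr1, Neurod2 and Neurod6 had their lowest level in mutant replicate 1. Neurod6 ranged from 57.5 CPM in that library to 1275 CPM in wild-type replicate 1. Pax6 (137 CPM), Neurog2 (557 CPM), Lhx2 (593 CPM) and Emx2 (46.3 CPM) were not lowest in mutant replicate 1. Emx2 was, however, close to its lowest level, 46.1 CPM in wild-type replicate 3.

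**Figure D1:**
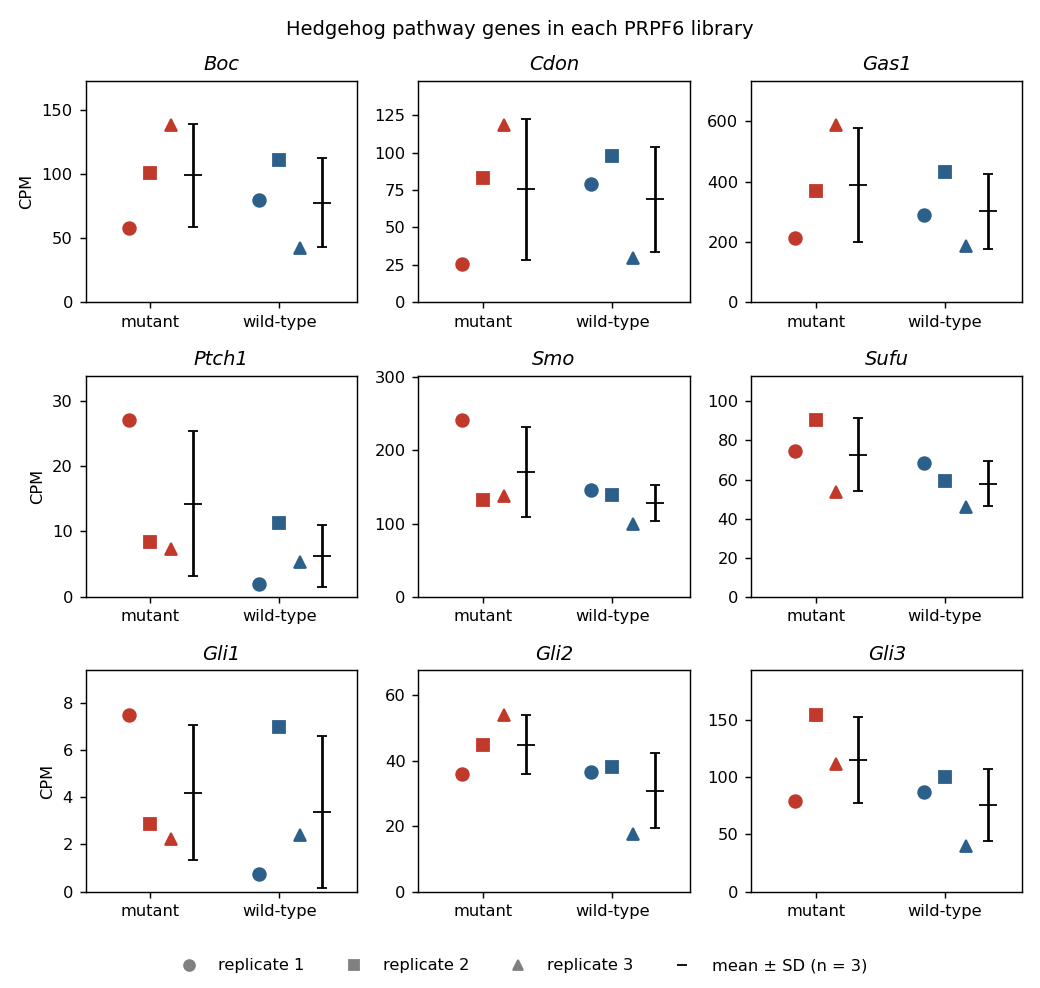
CPM of the 9 hedgehog genes (vertical axes, each from 0) in 3 mutant (red) and 3 wild-type (blue) PRPF6 libraries, with the mean and SD of each group in black. Ptch1 reached 27.0 CPM in mutant replicate 1, and the groups overlap in all 9 panels.

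Per kilobase of exon, Gas1 was the most abundant of the 9, with a mean of 117 CPM per kilobase over the 6 libraries and a range of 62.5 to 198. Smo followed at 26.5 (range 17.8 to 42.9), Boc at 19.8 (9.50 to 31.0), Gli3 at 9.99 (4.20 to 16.2), Cdon at 9.35 (3.27 to 15.3), Sufu at 8.50 (5.96 to 11.8) and Gli2 at 5.51 CPM per kilobase (2.55 to 7.88). Gli1 and Ptch1 closed the order at 0.758 (0.150 to 1.50) and 0.721 CPM per kilobase (0.135 to 1.91). The ranges of Gas1 and Smo did not overlap, nor did those of Gli2 and Gli1, while all other neighbours in this order overlapped. Transcripts of a co-receptor and of the signal transducer Smo were thus more abundant in every library than those of the 2 members that the pathway switches on. Without scaling for length, Gli3 moved ahead of Boc and Ptch1 ahead of Gli1.

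Boc, Cdon and Gas1 encode the co-receptors, cell-surface proteins that help Patched bind the ligand. Boc (chromosome 16, 44485049 to 44558897, minus strand, GRCm38, GENCODE M21) was at 58.1, 100.3 and 138 CPM in mutant replicates 1, 2 and 3, against 79.5, 111 and 42.3 CPM in wild-type replicates 1, 2 and 3. Cdon (chromosome 9, 35421128 to 35507652, plus strand) was at 25.2, 82.9 and 118 CPM in mutant replicates and at 79.0, 97.9 and 29.7 CPM in wild-type replicates. Gas1, whose product is anchored to the membrane by a lipid (chromosome 13, 60174405 to 60177365, minus strand), was at 211, 368 and 587 CPM in mutant and at 288, 433 and 185 CPM in wild-type replicates. In all 3 genes mutant replicate 3 was the highest library and wild-type replicate 2 the next, and mutant replicate 1 and wild-type replicate 3 were the lowest pair. In this exon set 19.9% of the bases of Gas1 are shared with the gene Gm48488, whose reads cannot be told apart from those of Gas1 without a known strand setting.

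The group means of the co-receptors differed by less than their spread. Boc averaged 98.8 ± 39.9 CPM with mutant and 77.6 ± 34.4 CPM with wild-type PRPF6 (SD, n = 3 each). Its log2 difference was 0.35 ± 0.40 (SE) with a 95% interval from −0.57 to 1.27. Gas1 averaged 389 ± 188 and 302 ± 124 CPM with mutant and wild-type PRPF6 (log2 difference 0.36 ± 0.40, SE; interval −0.56 to 1.29). For Cdon the means were 75.5 ± 47.0 CPM with mutant and 68.9 ± 35.2 CPM with wild-type PRPF6, and the interval of the log2 difference, 0.13 ± 0.58 (SE), ran from −1.19 to 1.46. Two-sided exact permutation p was 0.50 for Boc, 0.90 for Cdon and 0.60 for Gas1, where 3 libraries against 3 can reach 0.10 at the lowest. The sign of the Cdon difference turned without mutant replicate 3 (−0.35) or without wild-type replicate 3 (−0.23), and that of Gas1 without mutant replicate 3 (−0.063). Without mutant replicate 1, Boc, Cdon and Gas1 stood at 0.62, 0.55 and 0.66, and without wild-type replicate 2 at 0.70, 0.47 and 0.71. Without wild-type replicate 3, Boc stood at 0.054 and Gas1 at 0.11, and the lowest value of Boc was 0.026, without mutant replicate 3. Cdon stood at 0.24 without wild-type replicate 1 and at 0.060 without mutant replicate 2.

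Ptch1 (chromosome 13, 63508328 to 63573598, minus strand) encodes the receptor that restrains Smoothened and is itself a target of the pathway. It was at 27.0, 8.31 and 7.34 CPM in mutant replicates 1, 2 and 3, against 1.91, 11.3 and 5.37 CPM in wild-type replicates 1, 2 and 3. Mutant replicate 1 was high, wild-type replicate 1 was low, and the other 4 libraries lay between 5.37 and 11.3 CPM across both groups. The means were 14.2 ± 11.1 CPM with mutant and 6.21 ± 4.77 CPM with wild-type PRPF6 (SD, n = 3 each). The log2 difference of 1.20 ± 0.77 (SE) was larger than that of the other 8 genes, and its interval ran from −0.57 to 2.96 (two-sided exact permutation p = 0.40). Without mutant replicate 1 it was 0.33, without wild-type replicate 1 it was 0.77, without wild-type replicate 2 it was 1.96, and without wild-type replicate 3 it was 1.11.

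Smo (chromosome 6, 29735503 to 29761365, plus strand) encodes Smoothened, the receptor-like protein that passes the signal on. Its levels were 241, 132 and 137 CPM in mutant replicates 1, 2 and 3, against 145, 139.5 and 99.9 CPM in wild-type replicates 1, 2 and 3. Mutant replicate 1 was the highest library here too, and mutant replicates 2 and 3 lay inside the range of the wild-type libraries. The means of 170.2 ± 61.6 CPM with mutant and 128 ± 24.7 CPM with wild-type PRPF6 gave a log2 difference of 0.41 ± 0.27 (SE; interval −0.21 to 1.03). Without mutant replicate 1 that difference was 0.071, and without wild-type replicate 3 it was 0.26 (two-sided exact permutation p = 0.60 with all libraries).

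Sufu (chromosome 19, 46396896 to 46488804, plus strand) encodes the protein that holds GLI factors in the cytoplasm. It was at 74.4, 90.5 and 53.4 CPM in mutant replicates and at 68.6, 59.4 and 45.9 CPM in wild-type replicates. Its levels varied least among the 9 genes, 1.97-fold from the lowest to the highest library. The means were 72.7 ± 18.6 CPM with mutant and 58.0 ± 11.4 CPM with wild-type PRPF6 (log2 difference 0.33 ± 0.25, SE; interval −0.25 to 0.90), and the log2 difference was 0.19 without wild-type replicate 3, 0.14 without mutant replicate 2 and 0.51 without mutant replicate 3.

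Of the 3 GLI factors, Gli1 acts only as an activator and is made in response to the signal. Gli1 (chromosome 10, 127329882 to 127341974, minus strand) had 436, 142 and 98 counts in mutant replicates 1, 2 and 3, against 35, 426 and 119 counts in wild-type replicates 1, 2 and 3. These counts correspond to 7.50, 2.85 and 2.23 CPM with mutant and 0.751, 6.99 and 2.38 CPM with wild-type PRPF6. Each group held a library near 7 CPM, and the lowest library was in the wild-type group. The log2 difference was 0.32 ± 1.02 (SE), with an interval from −2.02 to 2.65, and it was −0.41 without mutant replicate 1, −0.16 without wild-type replicate 1 and 1.42 without wild-type replicate 2. It was 0.12 without wild-type replicate 3, 0.53 without mutant replicate 2 and 0.62 without mutant replicate 3. Arhgap9 and Gm47200 share 6.55% of the exon bases of Gli1.

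Gli2 and Gli3 are present before any signal arrives. Gli2 (chromosome 1, 118834132 to 119053619, minus strand), which serves mainly as the activator, was at 35.8, 44.8 and 54.1 CPM in mutant replicates 1, 2 and 3, against 36.6, 38.1 and 17.5 CPM in wild-type replicates 1, 2 and 3. Gli3 (chromosome 13, 15463235 to 15730026, plus strand), the main repressor, was at 79.8, 155 and 112 CPM in mutant replicates and at 87.4, 100.5 and 40.3 CPM in wild-type replicates. In both genes mutant replicates 2 and 3 were the highest libraries, wild-type replicate 3 was the lowest, and mutant replicate 1 lay below wild-type replicates 1 and 2. Gli2 averaged 44.9 ± 9.13 CPM with mutant and 30.8 ± 11.5 CPM with wild-type PRPF6, a log2 difference of 0.55 ± 0.33 (SE; interval −0.22 to 1.31). Gli3 averaged 116 ± 37.8 and 76.1 ± 31.6 CPM with mutant and wild-type PRPF6, a log2 difference of 0.60 ± 0.36 (SE; interval −0.24 to 1.44; two-sided exact permutation p = 0.30 for each gene). Without wild-type replicate 3 the log2 differences were 0.27 for Gli2 and 0.30 for Gli3, and without mutant replicate 2 that of Gli3 was 0.33.

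**Figure D2:**
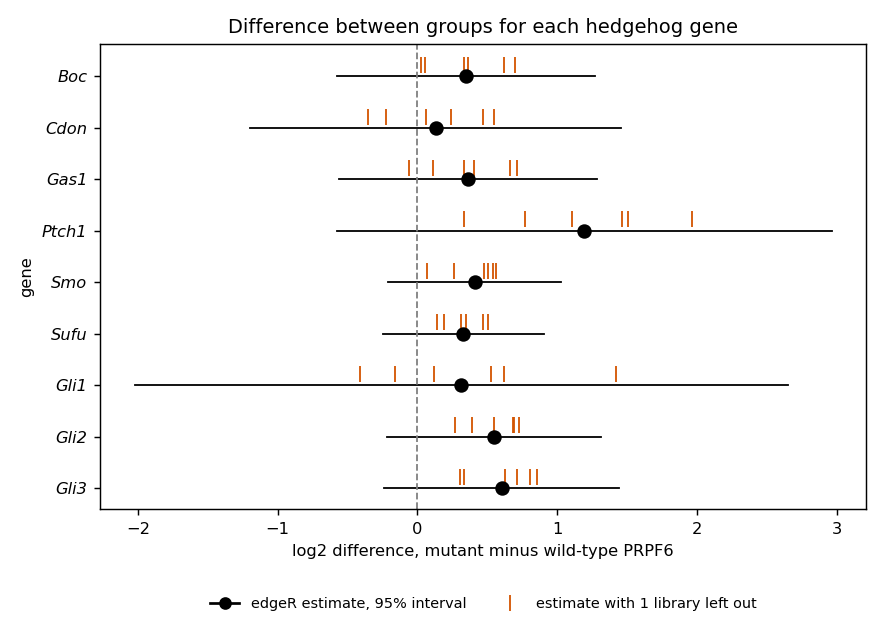
Log2 difference, mutant minus wild-type PRPF6 (horizontal axis), for the 9 genes (rows): black points and lines are edgeR estimates with 95% intervals, and orange ticks are estimates with 1 library left out. Every interval includes 0, and ticks cross 0 for Cdon, Gas1 and Gli1.

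Among the other genes of the pathway, Hhip gave the same library order at its ends as Gli1 and Ptch1. Hhip, a membrane protein that captures the ligand, was at 16.7, 4.02 and 1.78 CPM in mutant replicates 1, 2 and 3, against 0.666, 6.02 and 4.99 CPM in wild-type replicates 1, 2 and 3. In all 3 genes mutant replicate 1 was the highest library, wild-type replicate 2 the next and wild-type replicate 1 the lowest. Hhip did not pass the test (log2 difference 0.94 ± 1.06, SE), and the 3 genes do not separate the groups.

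Shh, the ligand gene, was at 7.49, 2.53 and 0.935 CPM in mutant replicates 1, 2 and 3, against 0, 2.10 and 2.00 CPM in wild-type replicates 1, 2 and 3. The library with no Shh count, wild-type replicate 1, is the one lowest in Gli1, Ptch1 and Hhip. A count of 0 there allows up to 0.0644 CPM (3 counts, covering counting error only, since reads without molecular identifiers are not independent molecules). Of the exon bases of Shh, 28.4% are shared with 9530036O11Rik and Gm26894. The log2 difference of Shh was 1.42 ± 1.68 (SE) and did not pass.

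**Figure D3:**
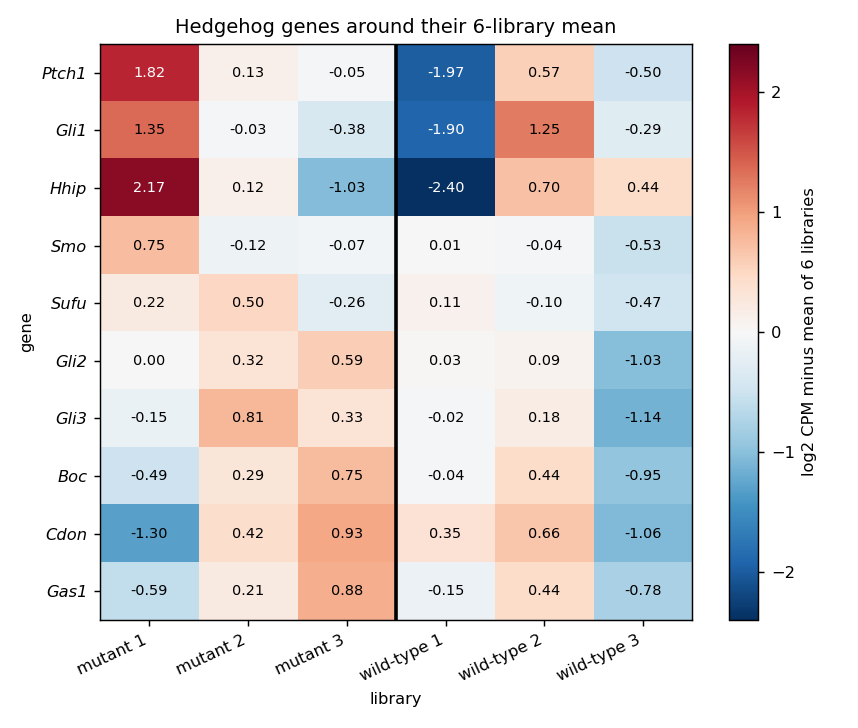
Log2 CPM of 10 hedgehog genes (rows) in each of the 6 libraries (columns, mutant left of wild-type PRPF6) minus the mean of the gene over the libraries; red is above and blue below that mean. Ptch1 is 1.82 above its mean in mutant replicate 1 and 1.97 below it in wild-type replicate 1, whereas Cdon is 1.30 below its mean in mutant replicate 1.

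In mutant replicate 1 Ptch1 and Gli1, which the pathway switches on, were high, and the co-receptor genes, which it turns down, were low. There Ptch1 stood 1.82 and Gli1 1.35 above the 6-library mean of their log2 CPM. Cdon stood at −1.30, Gas1 at −0.59 and Boc at −0.49. Other target genes went both ways there, with Ccnd2 at its lowest of the 6 libraries (824 CPM) and Bcl2 at its highest (108 CPM). In wild-type replicate 2, Gli1 was at 1.25 and Ptch1 at 0.57, but Boc, Cdon and Gas1 were also above their means, at 0.44, 0.66 and 0.44. In wild-type replicate 1, Gli1 was at −1.90 and Ptch1 at −1.97, with Boc, Cdon and Gas1 between −0.15 and 0.35. In mutant replicate 3 the placing was the other way round, with Gli1 at −0.38 and Ptch1 at −0.052, against 0.75 for Boc, 0.93 for Cdon and 0.88 for Gas1. In mutant replicate 2 Gli1 was at −0.031, Ptch1 at 0.13 and the co-receptors between 0.21 and 0.42. In wild-type replicate 3 Gli1, Ptch1, Boc, Cdon and Gas1 all lay below their means. These are descriptions of single libraries and were not tested.

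**Figure D4:**
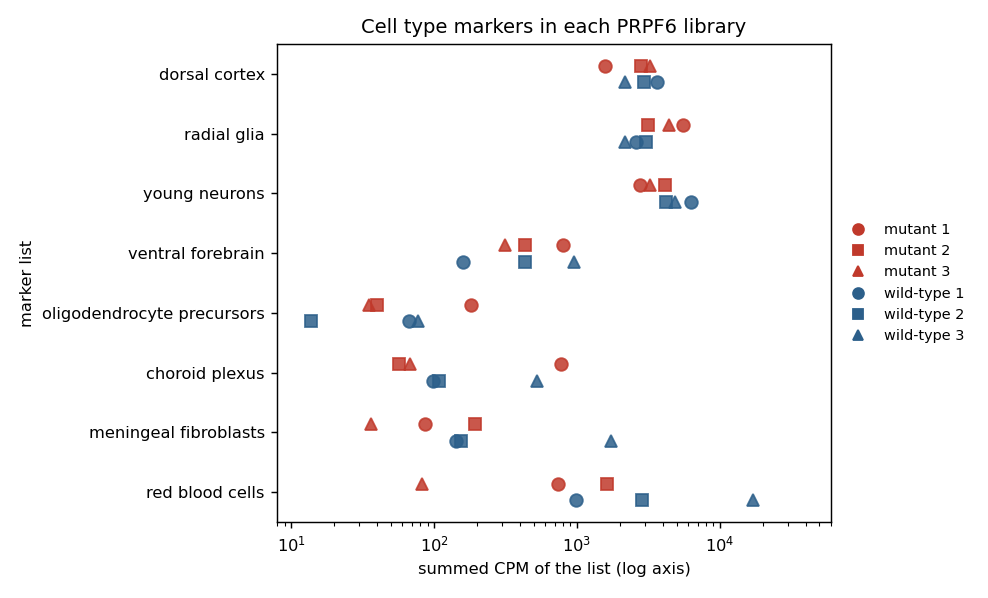
Summed CPM of marker lists (rows; log axis) in each mutant (red) and wild-type (blue) PRPF6 library. Mutant replicate 1 has the highest oligodendrocyte precursor sum, mostly Olig1 and Olig2, and the highest choroid plexus sum. Wild-type replicate 3 has the highest meningeal and red blood cell sums.

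Cell type markers moved with these libraries, and no cell type marker in the table was at 0 in all of them. Mutant replicate 1 had the highest sum of 5 oligodendrocyte precursor markers, 180.4 CPM against 13.8 to 77.2 CPM in the other 5 libraries. Olig2, a transcription factor that hedgehog signalling induces ventrally, was the most abundant of them. Olig2 and Olig1 made up most of that highest sum, at 97.3 and 69.7 CPM. Cspg4 was also highest in mutant replicate 1 (9.14 CPM). Sox10 and Pdgfra were highest in wild-type replicate 3, at 3.64 and 17.9 CPM, against 0.757 and 3.54 CPM in mutant replicate 1. Choroid plexus markers, led by the transthyretin gene Ttr, summed to 775 CPM in mutant replicate 1 and to 56.8 to 525 CPM elsewhere. In mutant replicates 2 and 3 the choroid plexus sums were 56.8 and 68.1 CPM, below the 98.6, 107 and 525 CPM in wild-type replicates 1, 2 and 3. The oligodendrocyte precursor sums there were 39.7 and 34.8 CPM, against 66.9, 13.8 and 77.2 CPM in wild-type replicates. In fitted mean over all libraries, 3 of 4 tested oligodendrocyte precursor markers and 4 of 4 choroid plexus markers were higher with mutant PRPF6. Ventral forebrain markers, led by the homeobox gene Dlx2, were higher in 6 of 10 and summed to 803, 432 and 314 CPM in mutant replicates 1, 2 and 3, against 159, 435 and 956 CPM in wild-type replicates 1, 2 and 3. Wild-type replicate 1, lowest in Gli1 and Ptch1, was also lowest in the ventral sum and highest in the dorsal cortex sum. Of that dorsal sum of 3666 CPM, Neurod6, which is also in the young neuron list, made up 1275 CPM, and the rank depended on it. In mutant replicate 3, next with a dorsal sum of 3276 CPM, Neurod6 made up 608 CPM. Mutant replicate 3 was the highest library for Emx2, Pax6, Lhx2, Eomes and Neurog2. Wild-type replicate 1 was the highest for Emx1, Tbr1, Neurod2 and Neurod6. The homeobox gene Lhx2, which leads the dorsal list, was at 654 CPM in wild-type replicate 1, within its range of 480 to 878 CPM over the libraries. Dorsal cortex markers were higher in fitted mean in 4 of 9 with mutant PRPF6. Wild-type replicate 3, however, had the highest ventral sum and a Ptch1 level below that of all mutant libraries. The part of these cells in the hedgehog values was not tested, and in such bulk samples fewer cells of a type and less RNA per cell cannot be told apart.

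Radial glia, the stem cells of the cortex, express the co-receptors, Gli2 and Gli3, and their 14 markers summed to 5541, 3165 and 4390 CPM in mutant replicates, against 2584, 3053 and 2166 CPM in wild-type replicates. The summed levels of the groups did not overlap, though mutant replicate 2 (3165 CPM) and wild-type replicate 2 (3053 CPM) were close. Mutant replicate 1, highest in this sum, was with wild-type replicate 3 in the lowest pair for Boc, Cdon and Gas1. For Gli2 and Gli3 it lay below wild-type replicates 1 and 2. Of the 14 markers, 4 had groups that did not overlap, against 9.14% of all genes, a share that was not tested. All 14, led by Fabp7, a fatty acid binding protein gene, had higher fitted means with mutant PRPF6 (median log2 difference 0.73). The 10 young neuron markers, led by Sox11, were all lower in fitted mean (median −0.79) and summed to 2761 to 4151 CPM in mutant and 4232 to 6277 CPM in wild-type libraries. Of 13 tested meningeal markers, led by the collagen gene Col3a1, 12 were lower, and they summed to 36.3 to 193 CPM in mutant and 142 to 1745 CPM in wild-type libraries. Red blood cell markers, led by Hba-a1, were lower in 12 of 13 and summed to 81.9 to 1634 CPM in mutant and 992 to 17143 CPM in wild-type libraries. Endothelial and pericyte markers, led by Pdgfrb, were lower in fitted mean in 4 of 5. They summed to 61.4, 71.6 and 5.90 CPM in mutant replicates 1, 2 and 3, against 8.31, 6.04 and 186 CPM in wild-type replicates 1, 2 and 3. Pdgfrb, the 1 tested marker that was higher (log2 difference 0.98 ± 1.18, SE), made up 56.7 CPM in mutant replicate 1. The endothelial gene Pecam1 was at 0.103 CPM in mutant replicate 1 and at 11.8 CPM in mutant replicate 2. Microglia markers, led by C1qb, were higher in fitted mean in 7 of 8. They summed to 34.3, 814 and 42.0 CPM in mutant replicates 1, 2 and 3, against 114, 299 and 218 CPM in wild-type replicates 1, 2 and 3. Mutant replicates 1 and 3 thus lay below every wild-type library. Cajal-Retzius markers, led by Reln, were split, 2 higher and 3 lower, at 81.0 to 125 CPM in mutant and 73.3 to 136 CPM in wild-type libraries. What these markers contribute to the values of the 9 genes was not tested.

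Counted by role, the rest of the pathway was split. Of 8 tested genes for ligands and their release, 3 were higher and 5 lower in fitted mean with mutant PRPF6 (median log2 difference −0.15), and 0 passed the test. The median turned positive without mutant replicate 1 (0.16, 5 of 8 higher), mutant replicate 3 (0.13, 4 of 8 higher) or wild-type replicate 3 (0.35, 6 of 8 higher). Leaving out mutant replicate 2 gave −0.48, and leaving out wild-type replicate 1 gave −0.097. Scube2, which helps release the ligand, was at 17.0, 3.55 and 0.0228 CPM in mutant replicates and at 0, 2.10 and 2.82 CPM in wild-type replicates. Disp1, the transporter that exports the ligand, was at 17.1, 21.9 and 20.3 CPM in mutant replicates and at 18.8, 9.64 and 17.5 CPM in wild-type replicates.

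Other hedgehog-binding proteins had 3 of 5 genes higher (median log2 difference 0.26). Lrp2, a large endocytic receptor that also binds Sonic hedgehog, was at 12.9, 7.15 and 5.52 CPM in mutant and at 10.2, 0.869 and 1.42 CPM in wild-type replicates. Without mutant replicate 3 that median was −0.089, without mutant replicate 1 it was 0.13, and with wild-type replicate 3 left out it was 0.47. Hedgehog target genes beyond the 9 had 8 of 12 higher (median 0.16). Without mutant replicate 1 3 of 12 were higher (median −0.35), and with any other single library left out the median was 0.25 to 0.40. Among them Ccnd2, a G1 cyclin gene, was at 824, 1050.3 and 1566 CPM in mutant replicates, against 1223, 1698 and 2525 CPM in wild-type replicates, and the log2 difference of −0.66 ± 0.31 (SE) did not pass. Bcl2, an inhibitor of cell death, was at 108, 75.6 and 71.8 CPM in mutant and at 70.9, 75.1 and 57.1 CPM in wild-type replicates.

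Genes for the kinases and adaptors that process GLI proteins were 9 higher and 13 lower of 22 (median −0.058). Dyrk2, a kinase that can phosphorylate GLI factors, was at 25.7, 28.2 and 24.6 CPM in mutant replicates, all below the 44.7, 39.0 and 31.1 CPM in wild-type replicates (log2 difference −0.55 ± 0.24, SE; adjusted p = 1.00). Ulk3, another kinase of GLI proteins, was at 25.5, 35.2 and 26.4 CPM in mutant and at 22.8, 20.0 and 18.0 CPM in wild-type replicates (log2 difference 0.52 ± 0.26, SE). Of 22 genes, 4 had groups that did not overlap, against 9.14% of all genes. The share of such genes here was not tested.

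Ciliary genes that hedgehog signalling needs were 9 higher and 9 lower (median 0.0026). Of these 18, 1 had all mutant libraries above and 1 all below the wild-type libraries. Over all genes, 9.14% had groups that did not overlap, and the share here was not tested. The 2 ciliary genes named next are those with the smallest unadjusted p of the list. Ttc21b, an intraflagellar transport gene, was at 41.2, 22.4 and 29.2 CPM in mutant replicates and at 10.4, 14.0 and 15.3 CPM in wild-type replicates, so that the groups did not overlap. Its log2 difference of 1.23 ± 0.33 (SE) did not pass over all genes (edgeR adjusted p = 1.00). Kif3a, a kinesin motor subunit of the same transport, was at 146, 144 and 97.3 CPM in mutant and at 174, 173 and 188 CPM in wild-type replicates, without overlap in the other direction (log2 difference −0.46 ± 0.19, SE).

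**Figure D5:**
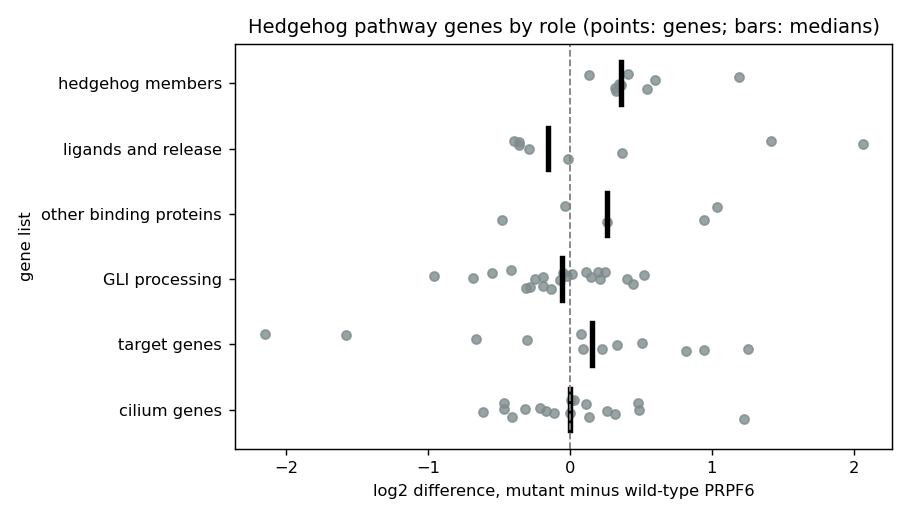
Log2 difference, mutant minus wild-type PRPF6 (horizontal axis), of every tested gene (points) in 6 lists of hedgehog pathway genes (rows), with the median of each list as a bar. The 9 members lie above 0, and the other lists lie on both sides of it.

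Genes outside the pathway with a library profile close to those of the GLI factors were searched among 9586 named genes with a mean of at least 10 CPM. Likeness was the root mean square difference of log2 CPM, each centred on its 6-library mean. Closest to Gli3 were Prdm16 (0.137), Inhbb (0.188) and Spata13 (0.190), and closest to Gli2 were Ankle1 (0.135), Fzd2 (0.142) and Igsf11 (0.148). All 6 had their lowest level in wild-type replicate 3, as Gli2 and Gli3 did. The 6 libraries are few for such a search, and the values describe these libraries only.

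Promoter sequences were searched for a GLI binding motif. Ptch1 is switched on by the pathway and Gas1 is turned down by it. RefSeq windows on GRCm38.p6, from 250 bases before to 50 after a gene's start, were found for 7 of the 9 genes. The consensus GLI binding motif TGGGTGGTC, or its reverse complement GACCACCCA, was in 0 of these 7 windows by exact match, and in 0.253% of all 32851 windows. With 1 mismatch allowed the 7 windows again held none, while 6.74% of all windows did. This says only that these letters are not in these windows. The windows of Ptch1 and Gas1 were 76.3% and 62.3% G and C, where the median of all windows was 52.7%. The 250 bases before the start are shown in the direction of each gene (chr13:63565736-63565985 and chr13:60177536-60177785, both minus strand), with no capitals because no motif was found. The windows follow RefSeq's starts. Those of Cdon, Ptch1 and Gli3 lie inside the gene bounds given above, so the outermost annotated starts of these genes were not covered. That of Gas1 lies just upstream of its bounds, around a start further out, so the start given by those bounds was not covered.
Ptch1: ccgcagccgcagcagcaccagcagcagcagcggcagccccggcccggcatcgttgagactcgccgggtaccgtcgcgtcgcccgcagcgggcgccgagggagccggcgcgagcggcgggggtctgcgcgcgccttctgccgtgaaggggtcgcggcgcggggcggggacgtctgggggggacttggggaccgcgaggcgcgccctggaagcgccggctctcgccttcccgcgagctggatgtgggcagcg
Gas1: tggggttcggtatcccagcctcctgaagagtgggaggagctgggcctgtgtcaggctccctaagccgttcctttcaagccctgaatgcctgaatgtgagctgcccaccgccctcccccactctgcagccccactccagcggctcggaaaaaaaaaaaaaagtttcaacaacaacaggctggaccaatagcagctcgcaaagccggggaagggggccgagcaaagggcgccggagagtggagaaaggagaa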

How the data were processed

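RNA was measured in 6 libraries, 3 with mutant and 3 with wild-type PRPF6, grouped by the sample titles. A SMART-Seq low-input kit amplified cDNA before paired-end sequencing, per the labels' protocols. The authors deposited expected counts per gene, made with RSEM on mm10 per the submitters' processing notes; its version, the aligner, the annotation and the strand setting are not stated there. Of the values in a library, 8.15% to 9.15% were not whole, but those of the 9 members all were.

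Expected counts were rounded, filtered with filterByExpr and scaled with TMM factors (0.972 to 1.02) on library totals. All 14451 genes were tested with edgeR 4.0.16 in R 4.3.3 (two-sided quasi-likelihood test with robust estimation and group as the single factor). P-values were adjusted by Benjamini-Hochberg and called under 0.05. The SE is the log2 difference divided by the square root of F. Centred log2 CPM used a prior count of 2. Exon lengths and positions came from GENCODE M21 on GRCm38, the assembly that mm10 names. Members, 5 other pathway lists and cell type lists were chosen with earlier results of these data known. Named were the members, Shh and Hhip, the 2 genes of smallest unadjusted p in each other pathway list, the most abundant marker of a list, and the 3 genes most like Gli3 and Gli2. Other cell type markers, such as Neurod6, were named to show what a sum rests on. 1 gene of the lists is not reported here and is left out of their counts.

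The steps were run on simulated data with known changes, and the share of changes recovered is not given here. The spread between libraries was wide, with a common coefficient of variation of 0.66 in the edgeR fit. A gene that did not pass may therefore still have changed. Alternatives were other scalings, filters and tests (DESeq2 1.42.0, limma 3.58.1 with voom), a replicate block, and leaving out libraries. Of the cell type entries, the red blood cell gene Ahsp had no matching row in the table used here. A comparison of the GLI proteins, which had been planned, was not made.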

Additional observations from a re-analysis of the deposited data

How the results depend on the processing

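No member passed the test in any of 16 alternatives (edgeR, DESeq2 or limma-voom), with adjusted p from 0.727 upwards; DESeq2 gave no adjusted p for 5 of the 9 genes. The count of all genes called was 0 with edgeR and limma-voom and 10 with DESeq2; at an unadjusted p under 0.05 these tools had 489, 558 and 642 genes. Gli2, Gli3, Ptch1, Sufu and Boc kept a positive log2 difference in all 16 alternatives. Among these, the adjusted p threshold of 0.1 and the fit without robust estimation left the log2 differences unchanged, so they could not turn a sign. Cdon reversed with limma-voom (−0.049), and without mutant replicate 3 (−0.35) or wild-type replicate 3 (−0.23). Gli1 reversed without mutant replicate 1 (−0.41) or wild-type replicate 1 (−0.16), and Gas1 without mutant replicate 3 (−0.063). With libraries left out, Gli1 ran up to 1.42, Cdon to 0.55, Smo to 0.56 and Gas1 to 0.71. Without both mutant replicate 1 and wild-type replicate 3, an alternative chosen after seeing the data, Gli1 was at −0.60 and Smo at −0.075, and 7 of the 9 genes were higher. The cause of these reversals was not tested. Leaving out 1 library at a time gave 0 genes and 0 members called each time, and 7 to 9 members higher, with their median log2 difference between 0.19 and 0.71.

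No pairing of the libraries by replicate number was seen: deviations from the group means of same-numbered libraries correlated at 0.054, 0.061 and −0.26 across genes, and not every library correlated best with its own number. So few libraries cannot exclude a pairing, and the submitters' own sample numbers are the same in both groups. With the replicate block 0 genes and 0 members were called, with 307 genes at an unadjusted p under 0.05. In that fit 9 members had a positive log2 difference, but that of Cdon, 6.46e-05, was practically 0. Gli1, at 35 to 436 counts, is the member whose depth leaves the most counting error.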
